A study of Mus musculus with 6 samples.

Results

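The Hox genes are the homeobox genes of the HoxA, HoxB, HoxC and HoxD clusters, and they were read here in cultured mouse dermal fibroblasts with and without endothelin 1 (Et1), a secreted peptide that signals through G-protein-coupled receptors. A probe set counted as a Hox probe set where its only annotated gene symbol was Hox followed by a cluster letter from a to d and a number, which gave 48 probe sets of 33 genes among 45037 probe sets and 18193 genes. Each gene was represented by its brightest probe set over the 6 arrays, and 11 genes had more than 1 to choose from. Messenger RNA was measured with the Mouse430_2 array of Affymetrix, on which a gene is read by 1 probe set or by several.

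The cells were primary fibroblasts grown out of explanted skin of B6 mouse pups of mixed sex, and the sample labels give dermis as the tissue, an age of 0 to 2 days and passage 6. The series text gives 0 to 3 days and says that cultures were divided by passage 5, so that one received 100 nM synthetic Et1 in the medium for 24 hours and the other nothing, which made 3 control and 3 Et1 arrays. All 6 cultures were kept in the same serum-containing medium. The labels name neither a body region of the skin nor the number of animals behind a culture, and the p-values therefore measure the spread between these arrays, which limits every comparison to 3 against 3.

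Hox proteins are transcription factors that give cells along the body axis their positional identity. Genes with a low paralogue number lie at the 3′ end of a cluster and are used toward the head, and genes with a high number lie at the 5′ end and are used toward the tail and the tips of the limbs. Fibroblasts of adult skin are known to keep, in culture, a Hox pattern that follows the site they were taken from. Hox proteins bind DNA together with the TALE homeodomain proteins Pbx, Meis and Pknox, while Trithorax and Polycomb complexes maintain the active and the silent state of the clusters.

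The clusters also hold microRNA genes, whose mature sequences are shown because they mark the same loci. In the order of genes along the chromosomes in RefSeq (assembly GRCm38.p6), Mir196b lay between Hoxa9 and Hoxa10 on chromosome 6 and Mir196a-2 between Hoxc9 and Hoxc10 on chromosome 15. Mir10a lay between Hoxb5 and Hoxb4, and Mir196a-1 between Hoxb9 and Hoxb13, on chromosome 11. Mir10b lay beside Hoxd4 on chromosome 2. The 4 mature sequences fell into 2 seed groups, and bases 2 to 8, the seed that pairs with target RNAs, are in capitals. The Hox probe sets did not measure these microRNAs.
mmu-miR-10a-5p: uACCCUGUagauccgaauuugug
mmu-miR-10b-5p: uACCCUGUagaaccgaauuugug
mmu-miR-196a-5p: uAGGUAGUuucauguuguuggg
mmu-miR-196b-5p: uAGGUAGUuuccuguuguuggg

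The first question was which clusters and paralogue numbers were read in these cells. Signals are the deposited intensities after each array was scaled to a common 2% trimmed mean of 139, and only probe sets with a mean of at least 41.0, the median of all probe sets and here called the filter, were tested. Of the 33 Hox genes, 19 (57.6%) lay above the filter, against 11666 of all 18193 genes (64.1%). Olfactory receptor genes, which serve smell and are not known as fibroblast genes, had a median of 24.2 over 38 genes, and 6 of them (15.8%) lay above it. Their 95th percentile was 67.0, and 16 Hox genes exceeded that as well, all but Hoxa11, Hoxd3 and Hoxd9. For Hoxa3, Hoxa5, Hoxa10 and Hoxc5 only the brightest probe set exceeded it, and the other one of Hoxa5 averaged 63.8. The brightest probe sets of Hoxa5 and Hoxc6 end in _x_at, a kind left out in an alternative below. A second probe set of Hoxc6 averaged 333.5. Probe sets differ in how strongly they respond, so a signal does not rank 1 gene's transcript against another's, and a signal below the filter does not show that a transcript is missing.

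HoxC had the largest share of its measured genes above the filter, 6 of 7: Hoxc4, Hoxc5, Hoxc6, Hoxc8, Hoxc9 and Hoxc10. HoxA had 5 of 9, namely Hoxa3, Hoxa5, Hoxa9, Hoxa10 and Hoxa11, and HoxB 5 of 9, namely Hoxb2, Hoxb3, Hoxb4, Hoxb6 and Hoxb9. HoxD had 3 of 8, namely Hoxd3, Hoxd8 and Hoxd9. By paralogue number, 4 of 7 genes numbered 1 to 3, 8 of 12 numbered 4 to 8, 6 of 7 numbered 9 or 10, and 1 of 7 numbered 11 to 13 lay above it. All 4 genes of paralogue group 9 and all 3 of group 3 were above the filter, and 0 of 2 in group 1, 0 of 2 in group 7 and 0 of 4 in group 13.

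**Figure D1:**
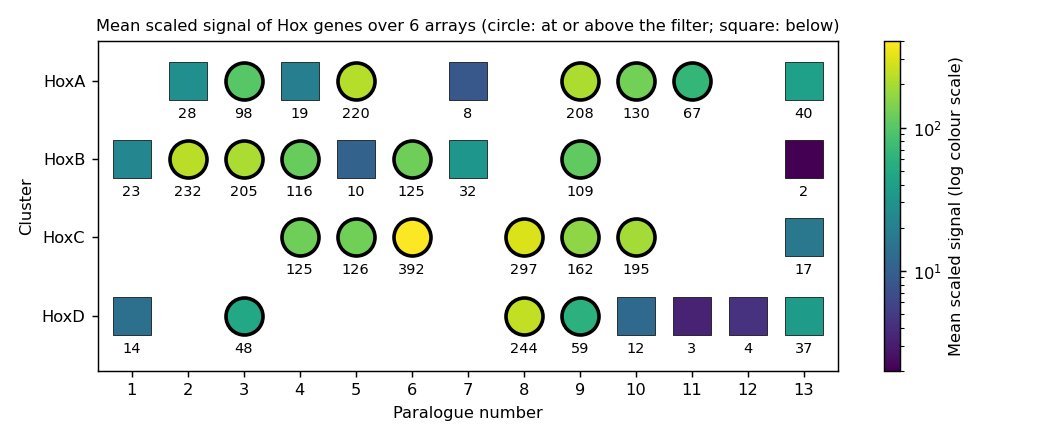
Mean scaled signal over the 6 arrays of the brightest probe set of each of the 33 measured Hox genes, by cluster (rows) and paralogue number (columns). The number and the colour (log scale) give the signal; circles are at or above the filter of 41.0 and squares below it. Circles reach number 10 in HoxC, 11 in HoxA and 9 in HoxB and HoxD, with gaps at Hoxa4, Hoxa7, Hoxb5 and Hoxb7; colours of different genes are not a ranking of their transcripts.

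Along HoxD the genes at the 5′ end lay below the filter. Hoxd8 averaged 244 and Hoxd9 59.3, while Hoxd10, Hoxd11, Hoxd12 and Hoxd13, the genes used in the distal limb and the tail, averaged 11.9, 3.33, 4.28 and 36.9. Hoxd9 was the last HoxD gene above the filter and Hoxd10, its 5′ neighbour in the RefSeq order, was below it on all 6 arrays. Signals of Hoxd9 were 71.5, 49.1 and 50.2 on the control arrays and 87.0, 49.4 and 48.7 on the Et1 arrays, each above the filter. Signals of Hoxd10 were 8.52, 10.1 and 12.4 on the control arrays and 23.1, 13.95 and 3.17 on the Et1 arrays. Neither gene had groups apart: for each, the 3 Et1 signals overlapped the 3 control signals.

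The 250 bases upstream of these neighbours, on the plus strand of GRCm38.p6 from RefSeq, are shown because the filter divides HoxD between them. By the olfactory bound of 67.0, which Hoxd9 did not reach, HoxD would divide between Hoxd8 and Hoxd9 instead. Each CpG, the letters CG, which read the same on both strands, is in capitals; Hoxd9 is at chr2:74697513-74697762 and Hoxd10 at chr2:74691641-74691890.
Hoxd9 upstream: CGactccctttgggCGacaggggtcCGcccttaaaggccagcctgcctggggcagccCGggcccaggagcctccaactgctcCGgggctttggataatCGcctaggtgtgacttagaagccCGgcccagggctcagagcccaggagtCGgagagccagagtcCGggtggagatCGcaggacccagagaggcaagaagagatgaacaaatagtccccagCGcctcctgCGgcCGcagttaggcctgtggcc
Hoxd10 upstream: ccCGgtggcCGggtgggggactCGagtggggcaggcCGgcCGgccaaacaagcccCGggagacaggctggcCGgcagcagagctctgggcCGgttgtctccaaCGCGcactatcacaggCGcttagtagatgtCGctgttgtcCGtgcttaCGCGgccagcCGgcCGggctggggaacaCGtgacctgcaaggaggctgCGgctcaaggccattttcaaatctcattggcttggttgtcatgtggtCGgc

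Both stretches were rich in G and C (65.2% for Hoxd9 and 65.6% for Hoxd10), with 13 CpGs upstream of Hoxd9 and 20 upstream of Hoxd10. Of 32851 mouse promoter stretches of the same length, 31.5% held at least 13 and 17.9% at least 20. Promoter sequences were matched for 19 of the 33 Hox genes, taking the start with the most CpGs where a gene had several. The 10 genes above the filter had 3 to 28 CpGs with a median of 13, and the 9 below it 6 to 35 with a median of 20, against a median of 6 over all promoters. The ranges overlapped, and DNA methylation was not measured.

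The genes of paralogue numbers 2 and 3 that were read belong to the hindbrain and neck level. Hoxb2, which patterns a hindbrain segment, had signals of 256, 287 and 237 on the control arrays and 191, 239 and 180.2 on the Et1 arrays. Hoxb3 had 211, 196 and 233 without Et1 and 163, 195 and 234 with it. Hoxa3, needed for the thymus and the parathyroid gland, had 103, 105 and 82.2 without Et1 and 102, 139.6 and 58.6 with it. The groups overlapped for each of them, and Hoxa3 spread more widely among the Et1 arrays than among the controls. Hoxd3, which shapes the first neck vertebrae, was the dimmest gene inside the filter, with 42.3, 53.3 and 63.8 without Et1 and 36.1, 34.1 and 57.1 with it. It was the only 1 of the 19 that did not reach the filter on all 6 arrays.

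Among numbers 4 to 8, the neck and chest level, the genes of HoxC were read without a gap among those measured. Hoxc4 had signals of 96.1, 138 and 137 on the control arrays and 168, 93.2 and 119 on the Et1 arrays. Hoxc5 had 88.9, 106 and 136 without Et1 and 116, 136 and 176 with it. Hoxc6, a gene of the upper chest level with the brightest Hox probe set, had 403, 504 and 349 without Et1 and 428, 384 and 280.2 with it. Each of these overlapped between the groups. Hoxb4, known for expanding blood stem cells, had 111, 128 and 104 without Et1 and 136, 107 and 109.8 with it. Hoxb6 had 101, 101 and 142 without Et1 and 146, 126 and 131 with it. Hoxa5, which acts in the lung and the neck-to-chest skeleton, had 199.9, 109.6 and 253 without Et1 and 234, 239.9 and 287 with it. The groups of each overlapped, and Hoxa5 was lowest on control replicate 2. Hoxd8 had 308, 244 and 191 without Et1 and 211, 288 and 226 with it, also overlapping. Hoxc8 is described with the treatment below.

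Genes of numbers 9 to 11 belong to the trunk, the lower back and the limbs. Hoxa9, a gene of blood progenitors that works with Meis1, had signals of 143, 186 and 310.1 on the control arrays and 161, 202 and 247 on the Et1 arrays. Hoxb9 had 105, 127 and 86.5 without Et1 and 92.4, 138 and 103 with it. Hoxc9, which sets the chest level of motor neurons, had 174, 197 and 158 without Et1 and 164, 159.9 and 119.8 with it. The groups overlapped for all of them, Hoxc9 by a narrow margin. Hoxa10, which with Hoxc10 and Hoxd10 suppresses ribs on the lumbar vertebrae, had 115, 136 and 109.6 without Et1 and 146, 119 and 153 with it. Hoxa11, a gene of the forearm, was the only 1 above the filter with a number over 10, with 76.0, 62.7 and 75.4 without Et1 and 49.5, 60.4 and 77.4 with it. Its mean of 66.9 lay just under the olfactory bound of 67.0.

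The 14 genes below the filter had means from 2.02 to 39.9. They were Hoxa2, Hoxa4, Hoxa7 and Hoxa13, then Hoxb1, Hoxb5, Hoxb7 and Hoxb13, then Hoxc13, and Hoxd1 and Hoxd10 to Hoxd13. Hoxa13, which builds the hand and foot, was the nearest below at 39.9 and Hoxd3 the nearest above at 47.8, and Hoxa13 reached 65.4 on Et1 replicate 1. Hoxc13, a gene of hair and nails, averaged 16.6, and Hoxb13, of the tail and prostate, 2.02. Hoxa2, which patterns the second pharyngeal arch, averaged 27.5 and Hoxb1, of the hindbrain, 22.9. In 3 of the 14 (21.4%) the groups did not overlap, against 10.0% of all probe sets below the filter, and none of the 14 was tested in the main comparison: Hoxa2 was at 29.0 to 35.6 without and 18.1 to 27.5 with Et1, Hoxd11 at 2.17 to 2.86 and 3.00 to 5.26, and Hoxd12 at 2.04 to 4.49 and 4.56 to 6.34.

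**Figure D2:**
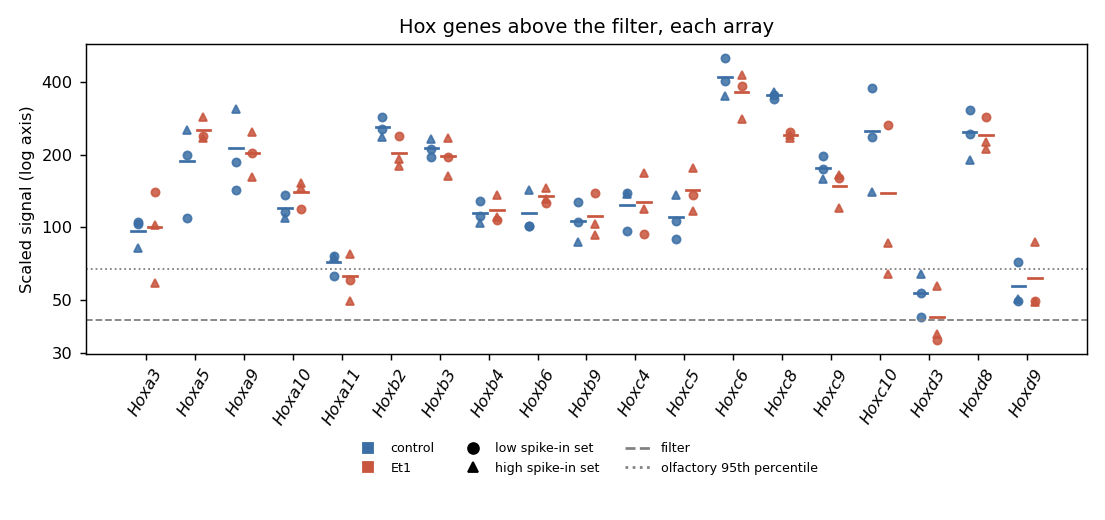
Scaled signal (log axis) of the 19 Hox genes above the filter on each of the 6 arrays, control in blue and Et1 in red, with a bar at each group mean; circles and triangles are the arrays with low and high spike-in signal. The dashed line is the filter at 41.0 and the dotted line the 95th percentile of 38 olfactory receptor genes at 67.0; Hoxc8 is the only gene whose control and Et1 points do not overlap.

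The identity of the cells was checked against markers. Of 14 fibroblast markers 13 lay above the filter, all but Lum, and their summed signal was 27960 to 42800 on the control arrays and 21000 to 33930 on the Et1 arrays. Markers of other cell types also lay above it: 7 of 10 of keratinocytes (Krt5 and Krt14, with means of 137 and 106, among them), 4 of 7 of melanocytes, 4 of 8 of leukocytes (Csf1r and Cd14 among them), 2 of 7 of endothelium (Cdh5 and Kdr), 3 of 7 of muscle, 2 of 5 of cartilage, 3 of 4 of Schwann cells and 2 of 3 of adipocytes. Those below it included Ptprc of leukocytes, Pecam1 and Vwf of endothelium, Krt1 and Krt15 of keratinocytes, Mlana of melanocytes and Myf5 of muscle. The summed markers of keratinocytes were 579.6 to 813 without Et1 and 659.9 to 844 with it, those of melanocytes 195 to 282 and 262 to 316, of endothelium 104 to 126 and 121 to 209.9, and of leukocytes 376 to 489 and 391 to 471. Those of muscle were 324 to 414 without Et1 and 329 to 349.6 with it, and those of cartilage 253 to 374 and 243 to 318. Summed markers of Schwann cells were 263 to 298 without Et1 and 168 to 227 with it, and those of adipocytes 345 to 460.1 and 153 to 203, neither with overlap. The arrays also split by the signal of bacterial spike-in control probe sets, with a mean log2 signal of 3.45 to 3.57 in a low set (Et1 replicate 2 with control replicates 1 and 2) and of 4.75 to 5.64 in a high set (Et1 replicates 1 and 3 with control replicate 3).

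The second question was whether Et1 changed the Hox pattern. Limma tested 29 Hox probe sets, of which 0 passed an adjusted p of 0.05, where 78 of all 22519 tested probe sets (0.346%) did, 0.0977% higher and 0.249% lower in Et1 arrays. At an unadjusted p under 0.05 there was 1 Hox probe set, that of Hoxc8, which was lower, against 12.3% of all probe sets in either direction and 6.38% lower. The control and Et1 signals did not overlap for 1 of the 19 genes (5.26%), against 17.6% of all probe sets and 8.11% with Et1 lower. Means of the log2 signals, on which all counts of lower and higher means rest, were lower in Et1 arrays for 11 of the 19 genes and higher for 8, and the median log2 fold change was -0.02, against 0.03 over all tested probe sets. The shares of unadjusted calls and of groups without overlap were under those of all probe sets, and each rested on 1 member. With 0.346% of all probe sets past the threshold, 0 of 29 does not set the Hox probe sets apart. Below the filter the share of Hox genes without overlap was over that of all probe sets there (21.4% against 10.0%).

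The size of change that these arrays leave possible differed between genes. The log2 fold changes ran from -1.03 for Hoxc10 to 0.51 for Hoxa5, which was 0.17 without control replicate 2, and the half-width of the 95% confidence interval was 0.32 to 1.21 with a median of 0.52. For 16 of the 19 genes the interval lay within 1 log2 unit of no change on either side, and for Hoxa5, Hoxc10 and Hoxd3 it reached beyond. Missing the threshold does not show that these genes were equal in both groups.

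**Figure D3:**
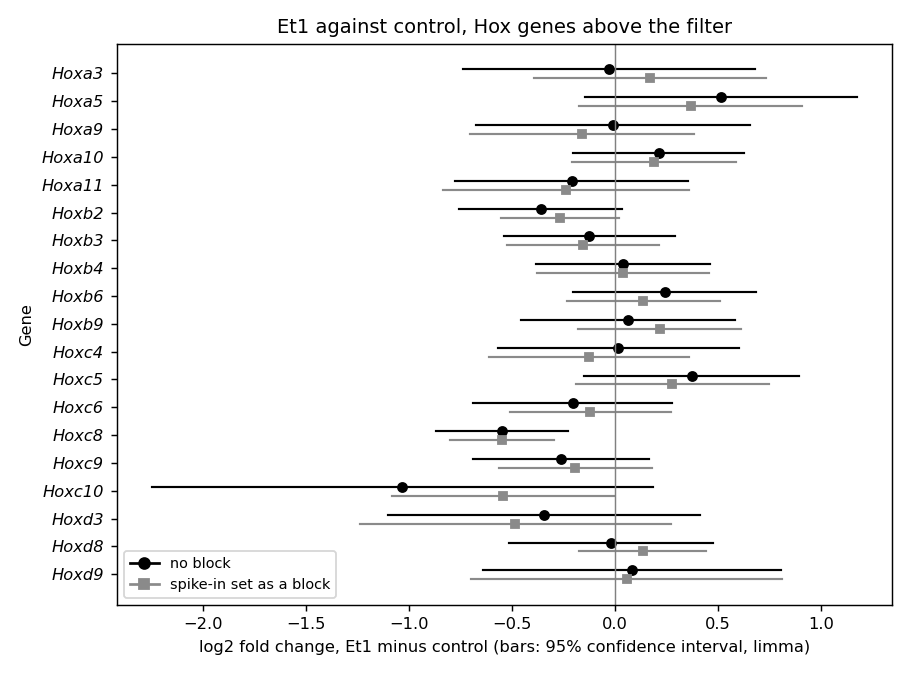
Log2 fold change, Et1 minus control, of the 19 Hox genes above the filter with 95% confidence intervals from limma, without a block (black circles) and with spike-in set as a block (grey squares). The interval of Hoxc8 lies below 0 in both fits (-0.87 to -0.23 without the block); that of Hoxc10 is the widest without the block, from -2.25 to 0.18.

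Hoxc8, a gene of the lower chest level that also guides the motor neurons of the forelimb, was the 1 Hox gene above the filter whose groups were apart. Its signals were 341, 353 and 363 on the control arrays and 234, 247 and 242 on the Et1 arrays. All 3 Et1 arrays were below all 3 controls, and the replicates of each group lay close together: the mean was 352 ± 11.1 in control and 241 ± 6.71 in Et1 arrays (SD, n = 3). The log2 fold change was -0.55 (SE 0.14, 95% confidence interval -0.87 to -0.23, limma adjusted p = 0.160), so over all probe sets it did not pass. Et1 minus control was -0.49 in the low spike-in set and -0.61 in the high one. The level of Hoxc8 itself, adjusted for treatment, differed by 0.01 on the log2 scale between the sets. In bulk samples fewer cells of a type and less RNA per cell cannot be told apart.

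With spike-in set as a block, a fit chosen with earlier results of these data known, Hoxc8 passed: its log2 fold change was again -0.55, with a limma adjusted p = 0.0292. It was the only 1 of the 29 Hox probe sets called there, where 3.85% of all probe sets were called and 2.47% were called lower. With the replicate number as a block, a fit that called 2.52% of all probe sets, 0 Hox probe sets passed. When each array was left out beside the spike-in block, the limma adjusted p of Hoxc8 ran from 0.0199 to 0.341 and passed only without Et1 replicate 1. Fibroblast markers moved alongside: without the block 11 of 13 tested had lower means, at a median log2 fold change of -0.43, and 1, the mesenchymal homeobox gene Prrx1, fell by 0.92 (limma adjusted p = 0.0307). Under that block 4 of the 13 were called lower: Prrx1, Pdgfrb, Thy1 and Col3a1, with limma adjusted p = 0.00253, 0.00684, 0.0106 and 0.0163. Fabp4, an adipocyte marker, fell by 1.44 without the block (limma adjusted p = 0.0258). Their part in the value of Hoxc8 was not tested.

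Hoxc10, a gene of the lumbar level and the hindlimb, had the largest difference and also the widest spread of the 19 genes above the filter; its statistics are given because of that spread, seen in the data. Its signals were 236, 379 and 140.3 on the control arrays and 63.9, 266 and 86.2 on the Et1 arrays. The groups overlapped, since Et1 replicate 2 exceeded control replicates 1 and 3, and the means were 252 ± 120.2 and 139 ± 111 (SD, n = 3). The log2 fold change was -1.03 (SE 0.53, 95% confidence interval -2.25 to 0.18, limma adjusted p = 0.480). Its highest array was 5.94 times its lowest, a ratio that 2.3% of tested probe sets reached, where the median of the 19 Hox genes was 1.65 and that of all probe sets 1.72. For Hoxc8 that ratio was 1.55.

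The spread of Hoxc10 followed the spike-in sets. The 3 arrays of the high set had the 3 lowest signals of the gene, and the difference between the sets (high minus low, adjusted for treatment) was -1.47 on the log2 scale (SE 0.24, limma adjusted p = 0.00343). With the set as a block the log2 fold change of Et1 against control was -0.54 (limma adjusted p = 0.270), from -0.17 in the low and -0.92 in the high set. Hoxd8 was also lower in the high set, by a log2 difference of -0.46 (limma adjusted p = 0.0471), so 2 of the 19 Hox genes (10.5%) differed between the sets, both lower in the high set, against 16.7% of all probe sets and 9.99% lower in the high set. A second probe set of Hoxb3 was lower there by a log2 difference of -0.84 (limma adjusted p = 0.0478), and the brightest one of Hoxb3 had a difference of 0.10. The labels do not say what the sets are, and their part in the Hox values beyond these numbers was not tested.

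**Figure D4:**
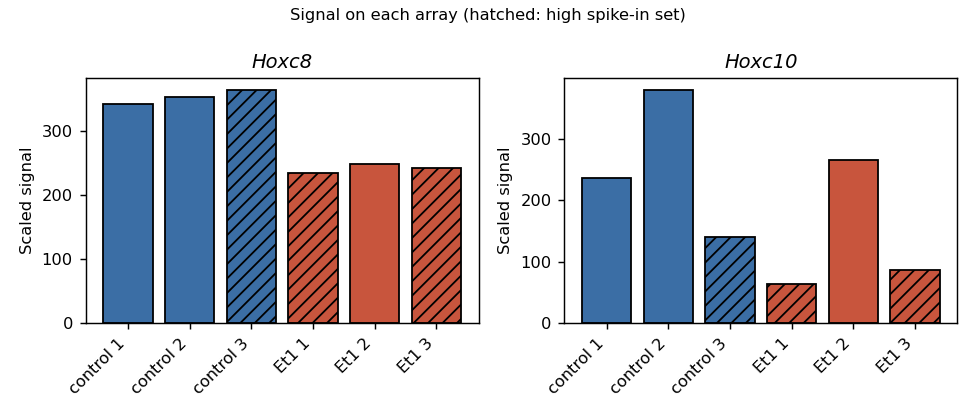
Scaled signal of Hoxc8 (left) and Hoxc10 (right) on each of the 6 arrays, control in blue and Et1 in red, with the arrays of the high spike-in set hatched. The Hoxc8 bars divide by treatment, 341 to 363 against 234 to 247; the 3 hatched Hoxc10 bars, at 63.9 to 140.3, are the lowest in either treatment.

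The other brightest Hox genes did not separate by treatment. Hoxc6 had means of 419 ± 78.2 in control and 364 ± 76.0 in Et1 arrays (SD, n = 3; log2 fold change -0.21, SE 0.21, 95% confidence interval -0.69 to 0.28, limma adjusted p = 0.730). Hoxd8 had means of 247 ± 58.7 and 242 ± 40.7 (SD, n = 3; log2 fold change -0.02, SE 0.22, 95% confidence interval -0.51 to 0.47, limma adjusted p = 0.979). Of the 8 Hox genes with several tested probe sets, 7 had the same sign in each of them. Hoxc6 was the exception, with log2 fold changes of -0.21, -0.08 and 0.31 in its 3 probe sets, the last being the dimmest with a mean signal of 62.8. Probe sets below the filter were outside that count. The dimmer probe set of Hoxa10 stood at -1.70, against 0.21 in the brightest. Its signals were 20.8 to 26.8 without Et1 and 4.68 to 14.7 with it. The dimmest of Hoxa3 stood at -1.62, against -0.03 in the brightest, and that of Hoxc5 at 0.46, against 0.37.

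The partners of Hox proteins were read as well. Of 8 TALE cofactor genes on the array 7 lay above the filter, all but Pbx4, and 0 passed limma's threshold in either direction; 5 had lower and 2 higher means, with a median log2 fold change of -0.34 against 0.03 over all tested probe sets. Pbx3, a partner of many Hox proteins, had signals of 313 ± 9.68 in control and 247 ± 2.99 in Et1 arrays (SD, n = 3), without overlap (log2 fold change -0.34, limma adjusted p = 0.379). Pknox1, Meis1 and Pbx2 had log2 fold changes of -0.41, -0.43 and -0.58, with overlapping groups. Between the spike-in sets (high minus low, adjusted for treatment) they differed by -0.32, -0.56 and -0.91 (limma adjusted p = 0.284, 0.0229 and 0.0012). With spike-in set as a block their log2 fold changes were -0.31, -0.24 and -0.27. The median of the 7 genes with that block was -0.24, and 0 passed.

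Both groups of chromatin regulators were well represented and none of their members passed. Of 14 Trithorax-type and other activating genes, all above the filter, 0 passed, with 6 higher and 8 lower means and a median log2 fold change of -0.04. Kdm6a, an enzyme that removes the Polycomb mark from histone H3, had signals of 126 ± 12.9 in control and 179 ± 30.3 in Et1 arrays (SD, n = 3; log2 fold change 0.50, limma adjusted p = 0.341). Of 22 Polycomb genes, all above the filter, 0 passed, with 14 higher and 8 lower means and a median of 0.07. Phc2, a subunit of Polycomb repressive complex 1, had 793 ± 37.2 and 1042 ± 38.4 (SD, n = 3; log2 fold change 0.39, limma adjusted p = 0.265), and the histone methyltransferase gene Ezh1 had a difference of 0.48 on the log2 scale (limma adjusted p = 0.297). The Et1 arrays lay above the controls for Kdm6a, Phc2 and Ezh1, and also for Rbbp5 and Ezh2. They lay below the controls for the Polycomb gene Rbbp7, at 3490 to 3989 against 3996 to 4392. Groups did not overlap for 17.6% of all tested probe sets.

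Signals that set the Hox pattern in the embryo were partly read. Of 18 genes of that list on the array 10 lay above the filter, while Cdx1, Cdx2 and Cdx4, caudal factors that switch on Hox genes, lay below it. Of the genes that make, break down or receive retinoic acid, Aldh1a3, Cyp26b1, Rara and Rarg lay above it, and Aldh1a2, Cyp26a1 and Rarb below it. Cyp26b1, with a mean of 44.9, reached the filter on only 2 of 6 arrays and stayed under the olfactory bound. Rara reached the filter on 4 arrays, with signals from 9.67 to 135, Aldh1a3 on 5 and Rarg on 6. None of the 10 passed, 7 had lower means, and the median log2 fold change was -0.17. Crabp1, a retinoic acid carrier, had signals of 2326 ± 388 in control and 1473 ± 169.7 in Et1 arrays (SD, n = 3), without overlap (log2 fold change -0.65, limma adjusted p = 0.149). With spike-in set as a block its limma adjusted p was 0.0388, the only call of the list there (1 of 10, against 3.85% of all probe sets). The median with that block was 0.02. Rxrb, a retinoid receptor, differed by 0.49 on the log2 scale (limma adjusted p = 0.368).

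Other homeobox and T-box genes that mark body position add to the pattern. Of 46 on the array 24 lay above the filter, among them Tbx15, Shox2, Emx2, En1 and the hindlimb gene Pitx1, and 22 below it, among them Tbx5 of the forelimb, Tbx4 of the hindlimb, Lmx1b of the dorsal limb and Pax3 of the dermomyotome. Pax3, with a mean of 40.5 just under the filter, was at 26.4 to 30.5 on the control arrays and 43.1 to 66.4 on the Et1 arrays. None of the 24 passed, 13 had lower means, and the median log2 fold change was -0.12. Tbx15, which marks dorsal dermis and shapes coat colour, had signals of 402 ± 49.7 in control and 227 ± 28.8 in Et1 arrays (SD, n = 3), without overlap (log2 fold change -0.82, limma adjusted p = 0.104). With spike-in set as a block its limma adjusted p was 0.0192, the only call of this list there (1 of 24, against 3.85% of all probe sets), and the 2 sets gave -0.65 (low) and -0.998 (high). With the replicate number as a block its limma adjusted p was 0.0426. Shox2, a gene of the proximal limb, had 309 ± 27.0 and 240.4 ± 11.2 (SD, n = 3; log2 fold change -0.36, limma adjusted p = 0.383). En1, which is active in trunk dermis, stood at -1.09 on the log2 scale (limma adjusted p = 0.475) and had, like Hoxc10, a large difference between the spike-in sets, -1.64. With spike-in set as a block the log2 fold change of En1 was -0.54 (limma adjusted p = 0.138). Of the noncoding transcripts of the clusters 3 were on the array; Hoxb5os and Hoxd3os1 had log2 fold changes of 1.16 and -0.21 (limma adjusted p = 0.626 and 0.811), and Hoxa11os lay below the filter.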

How the data were processed

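RNA of 3 control and 3 Et1 cultures was hybridised to Affymetrix Mouse430_2 arrays. The authors deposited 1 linear intensity per probe set and array, and the submitters' processing notes name MAS5; its version and target scaling were not stated there. Groups came from the labels. Arrays with 2% trimmed means of 91.7 to 179 were scaled to 139, the 4 zero values were set to the array's smallest positive value, and log2 was taken without a pseudocount. Of 45101 probe sets, 64 controls were left out, and the 22519 of 45037 at or above a mean signal of 41.0 were tested with limma 3.58.1 in R 4.3.3 (eBayes with an intensity trend, two-sided, no block), with Benjamini-Hochberg adjustment over all of them at 0.05.

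The platform annotation gave 1 symbol to 34945 probe sets, several to 932 and none to 9160. All 33 Hox symbols matched RefSeq (GRCm38.p6). The Hox genes, gene lists, markers and the spike-in split, taken from 27 Bacillus control probe sets, were chosen with earlier results of these data known. Every Hox gene above the filter was named with its 6 values, with full statistics at an unadjusted p under 0.05 and for the 3 brightest; of each list, genes past the threshold and otherwise at most 4 by smallest p were named. The list genes named as below the filter and the lists' cell type markers were picked as defining genes, and Hoxc10 after its values were seen. Rbbp5, Ezh2 and Rbbp7 were also named after their values were seen, because their groups did not overlap. The fit was tested on simulated data. Alternatives were quantile normalization, median centring, no filter, the 75th percentile (147), 50 added to each signal, eBayes without the trend, leaving out _x_at, _s_at and _a_at probe sets, averaging a gene's probe sets, the replicate number or the spike-in set as a block, each array left out, and, added after seeing the data, the spike-in block with each array left out.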

Additional observations from a re-analysis of the deposited data

How the results depend on the processing

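The 19 Hox genes above the filter were the same 19 under quantile normalization, median centring and the mean of probe sets; 9 remained at the 75th percentile (147), 17 without probe sets shared between transcripts (Hoxa10 and Hoxb6 lost), 18 when each of the 6 arrays had to reach it, and 19 to 20 with an array left out (Hoxa13 gained without control replicate 1, Et1 replicate 2 or Et1 replicate 3). Without a filter that count has no meaning. The count of Hox probe sets past limma's threshold was 1 with the spike-in block and 1 with the spike-in block without Et1 replicate 1, Hoxc8 both times, and 0 under the other settings run, 0 to 0 with an array left out. The log2 fold change of Hoxc8 stayed between -0.61 and -0.47. The median over Hox genes was -0.21 at the 75th percentile, -0.16 with the mean of probe sets, -0.12 with the spike-in block and -0.13 to 0.0205 with an array left out. With the mean of probe sets Hoxc6 turned to 0.0095 and Hoxa3 went from -0.03 to -0.57. Hoxa10 went from 0.21 to -0.74 (limma adjusted p = 0.320). That setting averages all probe sets of a gene, those below the filter included. Among these were a Hoxa10 probe set with a log2 fold change of -1.70 (mean signal 16.2) and a Hoxa3 probe set with -1.62 (mean signal 16.25). Hoxd8 turned to 0.13 with the spike-in block, to 0.07 to 0.21 when an array was left out there as well (0.2137, 0.0695, 0.0705, 0.1453, 0.1949 and 0.1024), and ran from -0.20 to 0.15 with an array left out (0.15, 0.07 and 0.02 without control replicate 1, Et1 replicate 1 and Et1 replicate 3); the cause was not tested. Without Et1 replicate 2 Hoxc10 stood at -1.65, and without control replicate 2 Hoxa5 at 0.17.

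Control and Et1 arrays share replicate numbers, and the deviations of same-numbered arrays from their group means correlated at -0.12, 0.44 and 0.45. Both arrays of replicate 2, and both of replicate 3, were in the same spike-in set, while those of replicate 1 were not. These correlations therefore cannot tell whether the numbers mark divided cultures. No label says that they do, and the main fit did not take the numbers as pairs. With the replicate number as a block limma called 567 probe sets and 0 of the 29 Hox probe sets, with an adjusted p of 0.0708 for Hoxc8 and 0.0877 for Hoxc10, and the median over Hox genes stayed at -0.02. It also called Tbx15 (0.0426) and the fibroblast markers Col3a1 (0.0117), Pdgfrb (0.0172), Thy1 (0.0262) and Prrx1 (0.0116). Array signals carry no molecule counts, so 3 arrays a group set the precision, and dim probe sets near the filter are the least certain.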
